A study of Mus musculus with 16 samples.

Results

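A set of 36 mouse genes of the unfolded protein response and of protein entry into the endoplasmic reticulum (ER) was followed in KO and Flox splenic B cells. The genes were chosen by name, with earlier results of these data known. All 36 were found among the 43432 gene rows of the RNA-seq table and passed the filter, a mean of at least 10 normalized counts, that left 13091 rows for testing. They comprise 3 transcription factors and downstream regulators, 3 stress sensors, 8 chaperones and lectins, 4 disulfide isomerases, 3 J-domain cochaperones, 8 degradation genes and 7 translocon genes. The study set out to find targets of miR-221-3p and miR-222-3p in B cells. Splenic B cells of strain C57B6L/J were cultured for 4 days with an antibody to CD40 at 500 ng/ml plus 2 cytokines, IL-4 at 25 and IL-21 at 10 ng/ml, a mixture that stands in for T cell help and drives B cells to divide, switch class and, in part, to secrete antibody. RNA-seq was made from 4 KO and 4 Flox samples, and Ago2 HITS-CLIP, in which RNA bound by the microRNA effector Argonaute 2 is crosslinked, immunoprecipitated and sequenced, from 4 KO and 4 Flox samples. The labels give the groups only as KO and Flox, with no Cre driver and no animal age or sex, and the RNA-seq table heads its Flox columns WT. Both groups received the same stimulation, so each result below is a difference between activated cells.

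Secretory proteins enter the ER through the SEC61 channel, with the TRAP complex (Ssr1 to Ssr4) beside it, and fold there with the help of chaperones, lectins and disulfide isomerases. When unfolded proteins build up, the sensors IRE1 (Ern1), PERK (Eif2ak3) and ATF6 start the unfolded protein response: IRE1 splices Xbp1 mRNA, PERK slows translation and favours ATF4 and then CHOP (Ddit3), and ATF6 is cut to a transcription factor. The targets of these arms are the chaperones, the translocon and the degradation machinery that returns misfolded proteins to the cytosol. In B cells the XBP1 arm is known for its role in the change to antibody-secreting plasma cells.

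miR-221-3p and miR-222-3p lie close together on chromosome X and share their seed, bases 2 to 8, shown in capitals in the RefSeq sequences (GRCm38.p6, minus strand, chrX:19146307-19146329 and chrX:19146901-19146923).
mmu-miR-221-3p: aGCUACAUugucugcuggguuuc
mmu-miR-222-3p: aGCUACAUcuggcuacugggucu
The RNA-seq rows of the hairpins hold almost no reads and check the labels little. No KO library had a read for Mir221, while Flox libraries 1 to 4 held 0, 0, 3 and 1, and Mir222 had 0 in all 8, where a count of 0 allows up to 3 reads.

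Total reads in gene rows were 22947689 to 39236132 in KO and 25421025 to 39616596 in Flox libraries. All 6 B cell markers passed a mean of 10 normalized counts, with sums of 89791 to 113053 in KO and 103342 to 108993 in Flox libraries. None of 6 T cell and 3 NK cell markers did, with T cell sums of 5.20 to 30.8 in KO and 9.30 to 25.8 in Flox and NK sums of 0 to 0.80 in KO and 0.80 to 6.20 in Flox libraries, and Ncr1 was at 0. Of 5 myeloid markers found 2 did, with sums of 70.5 to 102.9 in KO and 47.0 to 92.6 in Flox libraries, and of 5 erythroid markers 1 did, with sums of 6.90 to 48.5 in KO and 35.3 to 67.1 in Flox libraries and Alas2, Hba-a1 and Hbb-bs at 0. KO libraries 1 and 3 differed most from the other libraries. On principal component 1, with 33.5% of the variance, they lay at -38.0 and -35.6, with KO libraries 2 and 4 at -15.3 and 7.47 and Flox libraries 1 to 4 at 14.5, 17.9, 26.5 and 22.6. The share of mitochondrial mRNA was 2.93%, 2.07%, 4.05% and 1.65% in KO libraries 1 to 4, against 1.83%, 1.90%, 1.73% and 1.68% in Flox libraries 1 to 4. The part of these differences in the results below was not tested. Where leaving out KO libraries 1 and 3 moved a gene's printed estimate by over 1.5 times, the estimate without them is given beside it.

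Some of these genes share a promoter element. The ER stress response element (ERSE), the classical binding element of ATF6 with the factor NF-Y, joins CCAAT to CCACG across 9 bases, and ERSE-II joins ATTGG to CCACG across 1 base. Both strands of the RefSeq windows from 250 bases before to 50 bases after each start (GRCm38.p6) were searched for exact matches. A window was found for 30 of the 36 genes, and none for Atf6, Derl1, Hyou1, Manf, Sec61a1 and Ssr2. An exact ERSE lay in 9 of the 30 (30.0%), against 37 of 27025 genes with a window (0.137%), and the 9 are among the 37. The set was chosen by name for its ER roles, so this contrast and that of ERSE-II below describe it and test nothing. The 9 holders of an ERSE were 5 chaperones and lectins (Hspa5, Hsp90b1, Calr, Canx and Creld2), the isomerase Pdia6, the cochaperone Dnajc3, and the degradation genes Syvn1 and Derl3. None of the 3 regulators had one, nor had either of the 2 sensors or any of the 5 translocon genes with a window. Their elements are shown in the direction CCAAT to CCACG, with these ends in capitals, because the fixed ends flank a spacer that differs in every gene.
Hspa5, chr2:34772025-34772043, plus strand: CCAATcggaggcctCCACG
Hsp90b1, far element, chr10:86705638-86705656, minus strand: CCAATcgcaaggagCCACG
Hsp90b1, near element, chr10:86705533-86705551, plus strand: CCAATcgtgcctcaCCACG
Calr, chr8:84847075-84847093, plus strand: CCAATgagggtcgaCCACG
Canx, chr11:50325800-50325818, minus strand: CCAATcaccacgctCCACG
Creld2, chr15:88819520-88819538, minus strand: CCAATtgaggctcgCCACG
Pdia6, chr12:17266491-17266509, plus strand: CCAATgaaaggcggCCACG
Dnajc3, chr14:118937827-118937845, plus strand: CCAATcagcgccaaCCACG
Syvn1, chr19:6046532-6046550, plus strand: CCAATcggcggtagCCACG
Derl3, chr10:75893242-75893260, minus strand: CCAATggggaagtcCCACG
Counted from their upstream ends, the 10 elements lay 44 (Syvn1) to 212 (Hsp90b1) bases before the start, 6 along the gene and 4 against it. ERSE-II was found in 2 of the 30 genes (6.67%), against 12 of 27025 (0.0444%), in Herpud1 and in the cochaperone Dnajb11.
Herpud1, chr8:94386377-94386387, plus strand: ATTGGgCCACG
Dnajb11, chr16:22857852-22857862, plus strand: ATTGGcCCACG
The XBP1-type element TGACGTGG was in 0 of the 30 windows and 0.714% of all genes, and the ATF4-type element TGATGNAAT in 0 of the 30 and 1.08% of all. The short motifs alone were common: CCACG was in 23 of the 30 windows (76.7%) and 35.5% of all genes, and CCAAT in 24 of the 30 and 41.1% of all genes. A match describes these letters in this window and is not evidence of binding. Whole windows are shown for the 2 chaperone genes with the most reads, which hold 1 and 2 ERSE matches, and for Herpud1, which holds ERSE-II, written along the gene with the fixed ends of each element in capitals.
Hspa5, chr2:34771840-34772139, plus strand: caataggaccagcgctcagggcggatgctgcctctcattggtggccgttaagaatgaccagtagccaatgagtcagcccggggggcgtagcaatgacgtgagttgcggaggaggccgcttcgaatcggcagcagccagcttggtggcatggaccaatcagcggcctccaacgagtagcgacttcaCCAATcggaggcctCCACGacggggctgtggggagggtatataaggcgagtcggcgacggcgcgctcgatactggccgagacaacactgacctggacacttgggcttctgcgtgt
Hsp90b1, chr10:86705395-86705694, minus strand: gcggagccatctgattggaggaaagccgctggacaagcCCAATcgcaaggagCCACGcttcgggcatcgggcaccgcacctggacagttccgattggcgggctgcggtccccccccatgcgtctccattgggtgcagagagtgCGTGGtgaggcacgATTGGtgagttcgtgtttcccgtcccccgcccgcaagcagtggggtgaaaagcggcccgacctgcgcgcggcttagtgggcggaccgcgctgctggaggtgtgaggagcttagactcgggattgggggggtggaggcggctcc
Herpud1, chr8:94386179-94386478, plus strand: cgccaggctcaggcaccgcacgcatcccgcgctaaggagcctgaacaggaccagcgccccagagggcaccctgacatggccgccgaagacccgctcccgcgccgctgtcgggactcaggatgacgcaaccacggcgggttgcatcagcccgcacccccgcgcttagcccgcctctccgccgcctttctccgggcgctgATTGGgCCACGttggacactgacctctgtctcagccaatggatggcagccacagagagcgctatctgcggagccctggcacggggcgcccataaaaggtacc
In the Hsp90b1 window the near element runs against the gene and so reads CGTGG before ATTGG. Fold changes of the genes with and without an ERSE covered overlapping ranges. The 9 genes with one had log2 fold changes, KO over Flox, of -0.33 to 0.28 with a median of -0.02, and the 21 with a window and none had -0.47 to 0.28 with a median of -0.09. Medians without KO libraries 1 and 3 were not computed for these groups.

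**Figure D1:**
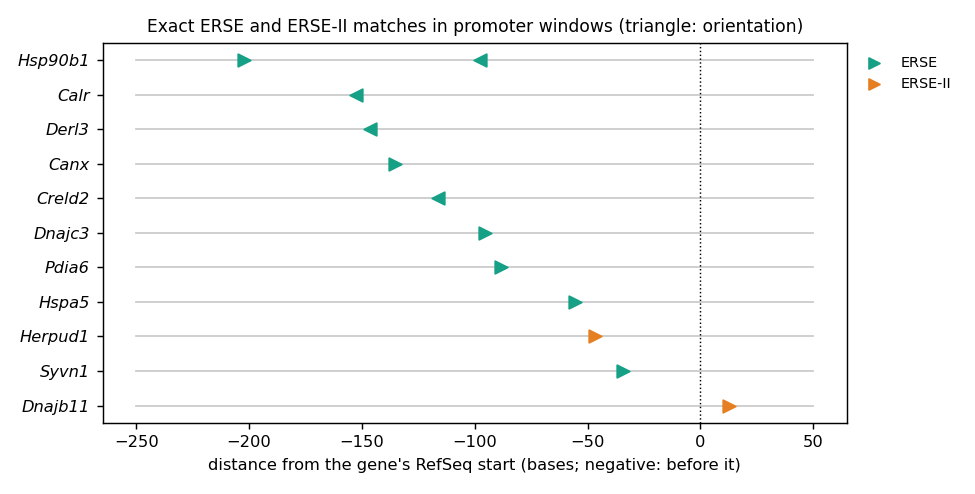
Positions of exact ERSE and ERSE-II matches in the promoter windows of the 11 genes that hold one. The horizontal axis is the distance from the RefSeq start in bases, and each row is a gene. Triangles stand at the centre of each element and point in its direction. Counted from their upstream ends, the 10 ERSE matches lie 44 to 212 bases before the start, and Hsp90b1 holds a pair of them.

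No member passed the test between KO and Flox cells. The main test was limma's moderated test on log2(normalized count + 1), with Benjamini-Hochberg adjustment over 13091 genes and a threshold of 0.05. It called 0 of the 36 members, and 9 of all genes (0.0687%), 7 of them higher (0.0535%) and 2 lower in KO (0.0153%). By unadjusted p under 0.05 there were 5 members, of which 1 was higher (Syvn1) and 4 lower in KO (Ddit3, Hspa5, Trib3 and Derl1). That count lies near the background, in which 15.1% of all genes had such a p, 7.74% higher and 7.39% lower. Count tests on the recovered reads also called 0 members, with edgeR calling 0.0687% and DESeq2 1.61% of all genes. The authors' deposited table likewise has no member under an adjusted p of 0.05, against 1.58% of its genes, and has 5 members under an unadjusted p of 0.05, against 10.5%. No label says that the replicates came from separate animals, so the p-values reflect only how these 8 libraries vary.

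Most differences were small and most lay below 0. Of the 36 members 25 had a log2 fold change below 0 and 11 above it, with a median of -0.07, while 51.5% of all tested genes were below 0 and their median was -0.01. With the fit corrected for gene span and GC content, 13 members were above 0 and the median was -0.05, and without KO libraries 1 and 3 the median was -0.04. Leaving out those libraries brought 28 members closer to 0 and 8 farther from it, turned 3 in sign and moved 24 by over 1.5 times. The lowest count of any member in any library was 65 reads. For 32 members the 95% confidence interval lay within a 1.5-fold difference either way. The groups did not overlap for 2 members, Hspa5 and Ssr1, both lower in KO, against 7.97% of all genes, 3.79% lower and 4.18% higher in KO.

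**Figure D2:**
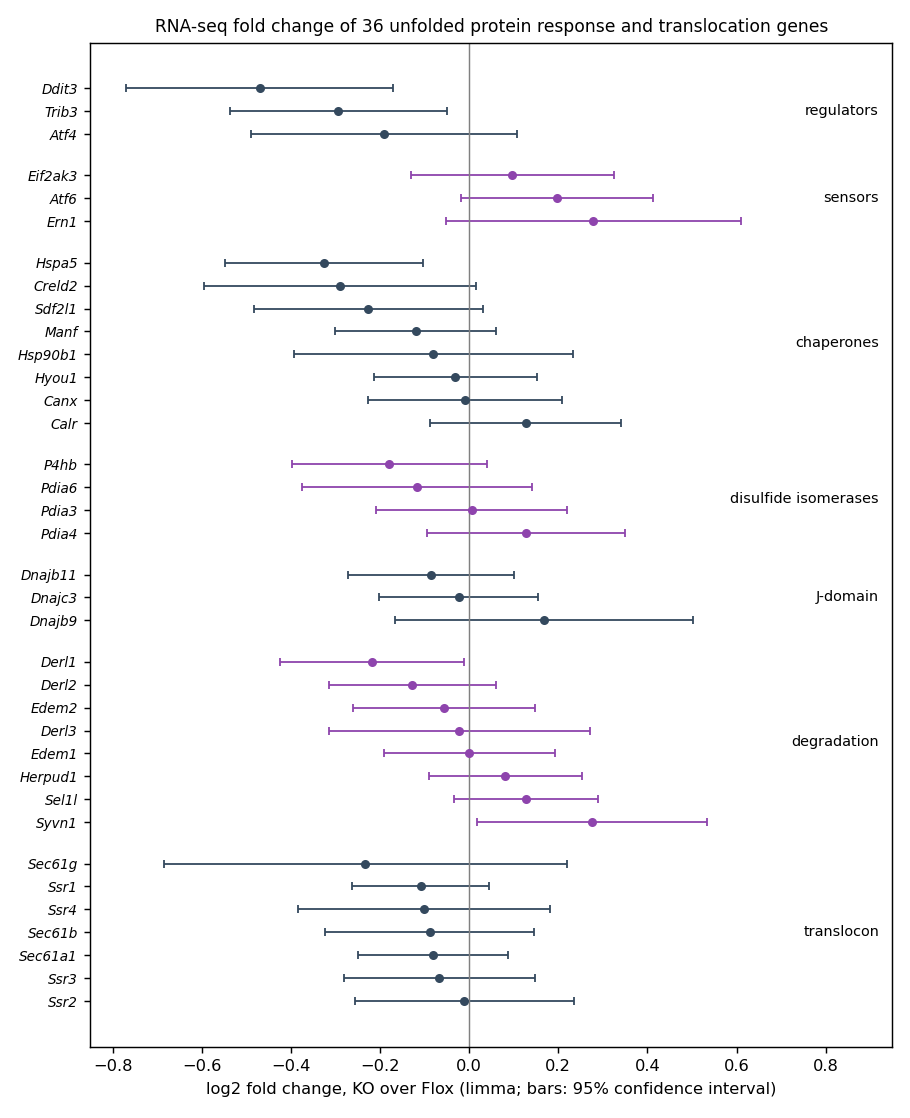
Log2 fold changes, KO over Flox, of the 36 genes in rows grouped by role. Points are limma estimates and bars are 95% confidence intervals, of which 31 hold 0. The regulators and the translocon genes lie below 0, of which Ssr2 and Ssr4 turn with the span and GC correction, and the sensors lie above it.

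The members' combined share of reads was a little lower in KO in 3 of 4 libraries. It was 1.36%, 1.42%, 1.48% and 1.55% in KO libraries 1 to 4, against 1.59%, 1.504%, 1.57% and 1.53% in Flox libraries 1 to 4. The means were 1.45% ± 0.0831 in KO and 1.55% ± 0.0369 in Flox (SD, n = 4 each), and KO library 4 lay within the Flox range. The chaperones and lectins took the largest share, 0.657% ± 0.0497 in KO and 0.711% ± 0.0362 in Flox, followed by the isomerases with 0.278% ± 0.0251 in KO and 0.294% ± 0.0147 in Flox. Translocon genes held 0.193% ± 0.00533 in KO and 0.207% ± 0.0110 in Flox, and degradation genes 0.168% ± 0.00468 in KO and 0.166% ± 0.00783 in Flox. The 3 regulators took 0.0724% ± 0.0136 in KO and 0.0846% ± 0.00263 in Flox, the cochaperones 0.0471% ± 0.00391 in KO and 0.0492% ± 0.00134 in Flox, and the sensors 0.0396% ± 0.00482 in KO and 0.0356% ± 0.00123 in Flox. Every KO library lay below every Flox library in the regulators' share, KO library 2 by a narrow margin, with KO library 3 the lowest at 0.0522%. Most of these reads were of Atf4, whose normalized count was the highest of all in KO library 2. By normalized counts each of the 3 regulators overlapped between the groups. In bulk samples, fewer cells with a high level and less RNA per cell cannot be told apart.

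**Figure D3:**
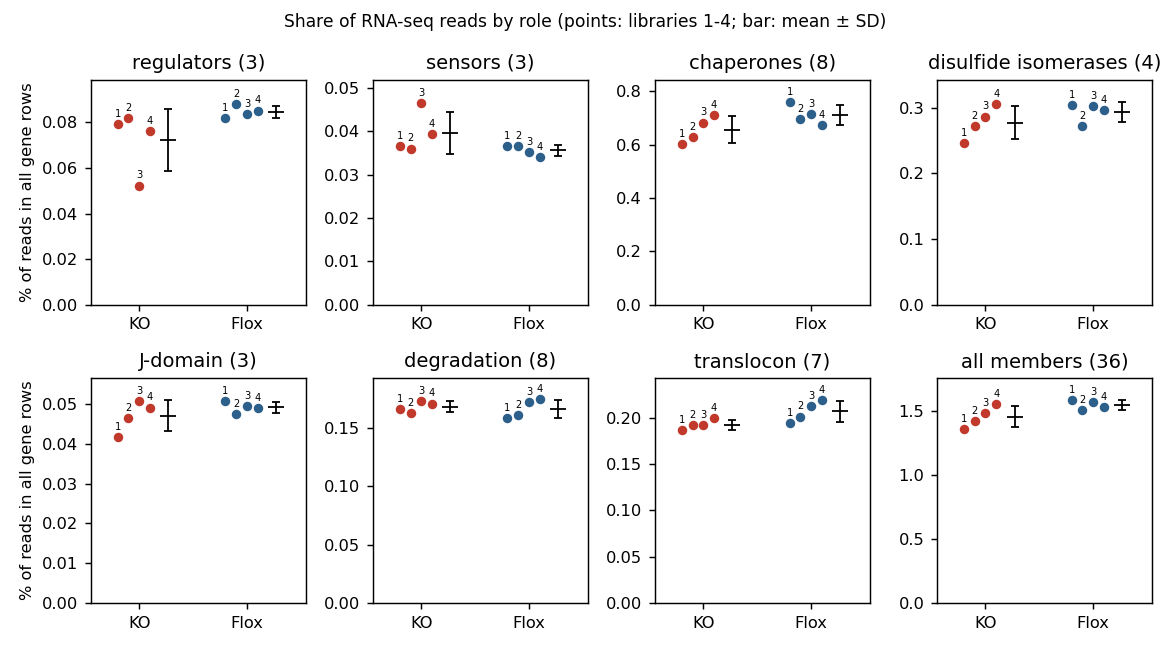
Percentage of reads in all gene rows taken by each role group, by library, with KO left of Flox in each panel. Points are libraries 1 to 4 and the bar is the mean ± SD, and the number of genes stands in each title. The regulators' share in KO library 3, 0.0522%, is the lowest of the 8 libraries, and the shares of the other groups overlap between KO and Flox.

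The 3 regulators all had estimates below 0, with a median of -0.29. Ddit3 (ENSMUSG00000025408, chr10:127290774-127296288 in GRCm38, as all gene positions here) encodes CHOP, the transcription factor of the late, death-prone phase of ER stress. It had normalized counts of 1864.5, 1421, 1468 and 1975 in KO libraries 1 to 4, against 1854, 2442, 2591 and 2410.3 in Flox libraries 1 to 4, that is reads divided by the authors' size factors. KO libraries 2 and 3 were below all Flox libraries, and KO libraries 1 and 4 lay between Flox 1 and the other Flox libraries. Its means were 1682 ± 279 in KO and 2324.6 ± 323 in Flox libraries (SD, n = 4 each), a log2 fold change of -0.47 with a 95% interval of -0.77 to -0.17 and an adjusted p of 0.239 by limma. DESeq2 on recovered reads put the adjusted p at 0.0696.

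Trib3 (ENSMUSG00000032715, chr2:152337422-152344032), a pseudokinase induced by CHOP, had normalized counts of 1139, 1085, 920.3 and 1136 in KO libraries 1 to 4, against 1099.9, 1329, 1438 and 1388.5 in Flox libraries 1 to 4. Flox libraries 2 to 4 were above all KO libraries, and Flox 1 lay among them. The log2 fold change was -0.29, with an interval of -0.54 to -0.05 and an adjusted p of 0.280 by limma. Atf4 (ENSMUSG00000042406, chr15:80255184-80257540), the factor whose translation PERK signalling favours and the one of the 3 with the most reads, had normalized counts of 20883, 21962, 13552 and 19512 in KO libraries 1 to 4, against 21389, 21924, 20584 and 21346 in Flox libraries 1 to 4. The 4 Flox libraries lay close together, and KO library 3 lay far below the other 3 KO libraries. Its estimate of -0.19, with an interval of -0.49 to 0.11, came to -0.04 without KO libraries 1 and 3.

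All 3 sensors had estimates above 0, with a median of 0.20, which the correction for span and GC content brought to 0.05 and leaving out KO libraries 1 and 3 to 0.09. Ern1 (ENSMUSG00000020715, chr11:106394650-106487852), the kinase and nuclease IRE1, had normalized counts of 632, 569.9, 895 and 853 in KO libraries 1 to 4, against 536, 578.5, 641.5 and 638.5 in Flox libraries 1 to 4. KO libraries 3 and 4 were above all others, while KO libraries 1 and 2 lay inside the Flox range. Its estimate was 0.28, with an interval of -0.05 to 0.61 and an adjusted p of 0.388 by limma. Atf6 (ENSMUSG00000026663, chr1:170704674-170867771), the sensor with the most reads, had normalized counts of 7965, 7476, 9864 and 7906 in KO libraries 1 to 4, against 7693.5, 7533, 6907 and 6711 in Flox libraries 1 to 4. KO libraries 1, 3 and 4 were above all Flox libraries, and KO library 2 lay inside the Flox range. The log2 fold change was 0.20 (0.09 without KO 1 and 3), with an interval of -0.02 to 0.41. Eif2ak3, which encodes PERK, had an estimate of 0.10 and an interval of -0.13 to 0.32.

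Of the 8 chaperones and lectins 7 had estimates below 0, and Hspa5 had the lowest of them. Hspa5 (ENSMUSG00000026864, chr2:34771970-34777547) encodes BiP, the ER's HSP70, which holds the sensors inactive until unfolded proteins draw it away. It had normalized counts of 38815, 43141, 42565 and 50321 in KO libraries 1 to 4, against 54462, 51269.8, 58119 and 54624 in Flox libraries 1 to 4. Every KO library lay below every Flox library, with KO 4 closest to them and KO 1 farthest. The means were 43711 ± 4806 in KO and 54619 ± 2798 in Flox libraries (SD, n = 4 each), a log2 fold change of -0.33 with an interval of -0.55 to -0.10. That did not pass the test, with an unadjusted p of 0.00779, an adjusted p of 0.244 by limma and an adjusted p of 0.0680 by DESeq2. Without KO libraries 1 and 3 its estimate was -0.23.

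Creld2 (ENSMUSG00000023272, chr15:88819646-88826681), an ER stress-induced folding factor, had normalized counts of 3206, 3864, 2687 and 4315.5 in KO libraries 1 to 4, against 4043, 3813, 4303 and 4826 in Flox libraries 1 to 4. KO library 3 was the lowest and KO library 4 the second highest after Flox 4. The estimate of -0.29, with an interval of -0.59 to 0.02, came to -0.05 without KO libraries 1 and 3. Sdf2l1 (ENSMUSG00000022769, chr16:17130138-17132383), a partner of BiP and its cochaperone DNAJB11, had normalized counts of 3651, 5249, 4072 and 4624 in KO libraries 1 to 4, against 4847, 4590.4, 5404 and 5620.1 in Flox libraries 1 to 4. KO libraries 1 and 3 were the lowest, and KO libraries 2 and 4 lay within the Flox range. The estimate was -0.23 (-0.05 without KO 1 and 3), with an interval of -0.48 to 0.03 and an adjusted p of 0.370 by limma.

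Hsp90b1 (ENSMUSG00000020048, chr10:86690209-86705509), the ER's HSP90, gave the most reads of all members. It had normalized counts of 44488, 48728, 67648.5 and 61172 in KO libraries 1 to 4, against 66546, 57823, 56992 and 51229 in Flox libraries 1 to 4. KO library 3 was the highest and KO library 1 the lowest, so the KO range enclosed the whole Flox range. The estimate was -0.08, with an interval of -0.39 to 0.23. Of the lectins, Calr (calreticulin) was above 0, at 0.13, and Canx (calnexin) was at -0.01 (-0.04 without KO 1 and 3). Hyou1, a nucleotide exchange factor for BiP, was at -0.03, or 0.020 with the span and GC correction and 0.022 without KO libraries 1 and 3, and the secreted stress protein Manf at -0.12.

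The 4 disulfide isomerases, which form and reshuffle disulfide bonds such as those of antibodies, lay 2 above and 2 below 0. P4hb (ENSMUSG00000025130, chr11:120560298-120573253), protein disulfide isomerase itself, had normalized counts of 23687, 24601, 22837 and 29256 in KO libraries 1 to 4, against 27755, 25816, 30274 and 29483 in Flox libraries 1 to 4. KO libraries 1 to 3 were below all Flox libraries, and KO library 4 lay inside the Flox range. The estimate was -0.18 (-0.08 without KO 1 and 3), with an interval of -0.40 to 0.04 and an adjusted p of 0.398 by limma. Pdia3 (ENSMUSG00000027248, chr2:121413775-121438687), the isomerase that works with calnexin and calreticulin and the one with the most reads here, had normalized counts of 25281, 28383, 30126 and 30170.1 in KO libraries 1 to 4, against 32100.2, 26274, 28330.2 and 26889.9 in Flox libraries 1 to 4. Its groups overlapped almost wholly, and the estimate was 0.01 (0.05 without KO 1 and 3), with an interval of -0.21 to 0.22. Pdia6 was at -0.12 (-0.04 without KO 1 and 3) and Pdia4 at 0.13 (0.05 without KO 1 and 3).

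J-domain proteins set BiP's ATPase going. Dnajb11 (ENSMUSG00000004460, chr16:22857845-22879634), the one of the 3 with the most reads, had normalized counts of 6582, 7668, 7912 and 8216 in KO libraries 1 to 4, against 8364, 7756, 7979 and 8028 in Flox libraries 1 to 4. KO library 1 was the lowest and KO library 4 was the second highest. Its estimate was -0.09 (-0.02 without KO 1 and 3), with an interval of -0.27 to 0.10. Dnajb9 was at 0.17, or -0.05 without KO libraries 1 and 3, and Dnajc3, also an inhibitor of PERK, was at -0.02.

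The degradation genes went both ways, 4 above and 4 below 0. Syvn1 (ENSMUSG00000024807, chr19:6046576-6053712) encodes HRD1, the ubiquitin ligase in the ER membrane. It had normalized counts of 7139, 6185, 7886.5 and 5462 in KO libraries 1 to 4, against 5101, 5061, 5574 and 6147 in Flox libraries 1 to 4. KO libraries 1 and 3 were the highest of the 8, KO library 2 was just above Flox 4, and KO library 4 lay inside the Flox range. The means were 6668 ± 1064 in KO and 5471 ± 508 in Flox libraries (SD, n = 4 each), with a log2 fold change of 0.28, an interval of 0.02 to 0.53 and an adjusted p of 0.310 by limma. Without KO libraries 1 and 3 the estimate was 0.09. Sel1l (ENSMUSG00000020964, chr12:91806043-91849157), the adaptor that holds HRD1, had normalized counts of 6887, 6222, 6911 and 6591 in KO libraries 1 to 4, against 6059, 6427, 6102 and 5769 in Flox libraries 1 to 4. KO libraries 1, 3 and 4 were above all Flox libraries, and KO library 2 lay inside the Flox range. The estimate was 0.13 (0.07 without KO 1 and 3), with an interval of -0.04 to 0.29.

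The Derlins, channel-like proteins of the same complex, had estimates below 0. Derl1 (ENSMUSG00000022365, chr15:57869502-57892418) had normalized counts of 3719.5, 4142, 4375 and 4694 in KO libraries 1 to 4, against 4540.2, 4601, 5177 and 5354 in Flox libraries 1 to 4. KO libraries 1 to 3 were below all Flox libraries, and KO library 4 lay inside the Flox range. Its means were 4232.5 ± 410.1 in KO and 4918 ± 408 in Flox libraries (SD, n = 4 each), with a log2 fold change of -0.22, an interval of -0.42 to -0.01 and an adjusted p of 0.316 by limma. Derl2 was at -0.13 (-0.06 without KO 1 and 3) and Derl3 at -0.02 (-0.10 without KO 1 and 3), or 0.12 with the span and GC correction. Edem1 (ENSMUSG00000030104, chr6:108828641-108859356), which takes misfolded glycoproteins out of folding, had the most reads of the group, with normalized counts of 12629, 13476, 14246 and 15495 in KO libraries 1 to 4, against 13535, 13003, 14469 and 14748 in Flox libraries 1 to 4. The groups overlapped almost wholly, with an estimate of 0.00 (0.05 without KO 1 and 3) and an interval of -0.19 to 0.19. Its relative Edem2 was at -0.06 (-0.0029 without KO 1 and 3), and Herpud1, a scaffold of the HRD1 complex, was at 0.08 (0.01 without KO 1 and 3).

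All 7 translocon genes had estimates below 0, with a median of -0.09, and with the span and GC correction 2 of them were above 0 and the median was -0.04. Ssr1 (ENSMUSG00000021427, chr13:37966605-37994217), the alpha subunit of the TRAP complex, had normalized counts of 9015, 9631, 9496 and 9499 in KO libraries 1 to 4, against 10191, 9764, 10576 and 10064 in Flox libraries 1 to 4. Every KO library was below every Flox library, though by a small margin between KO 2 and Flox 2. The means were 9410.1 ± 271 in KO and 10149 ± 337 in Flox libraries (SD, n = 4 each), and the log2 fold change was -0.11, with an interval of -0.26 to 0.05 and an adjusted p of 0.453 by limma. Ssr3 (ENSMUSG00000027828, chr3:65379655-65392623), the gamma subunit and the translocon gene with the most reads, had normalized counts of 18177, 17542, 23161 and 20776 in KO libraries 1 to 4, against 21047.5, 20705, 20938 and 20241 in Flox libraries 1 to 4. KO library 3 was the highest and KO libraries 1 and 2 the lowest, and the estimate was -0.07 (-0.12 without KO 1 and 3), with an interval of -0.28 to 0.15. Ssr2 was at -0.01 (0.08 without KO 1 and 3) and Ssr4 at -0.10 (-0.05 without KO 1 and 3). Of the channel itself, Sec61a1 was at -0.08 (-0.04 without KO 1 and 3), Sec61b at -0.09 (-0.03 without KO 1 and 3) and Sec61g, the member with the fewest reads, at -0.23 with the widest interval, -0.69 to 0.22.

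**Figure D4:**
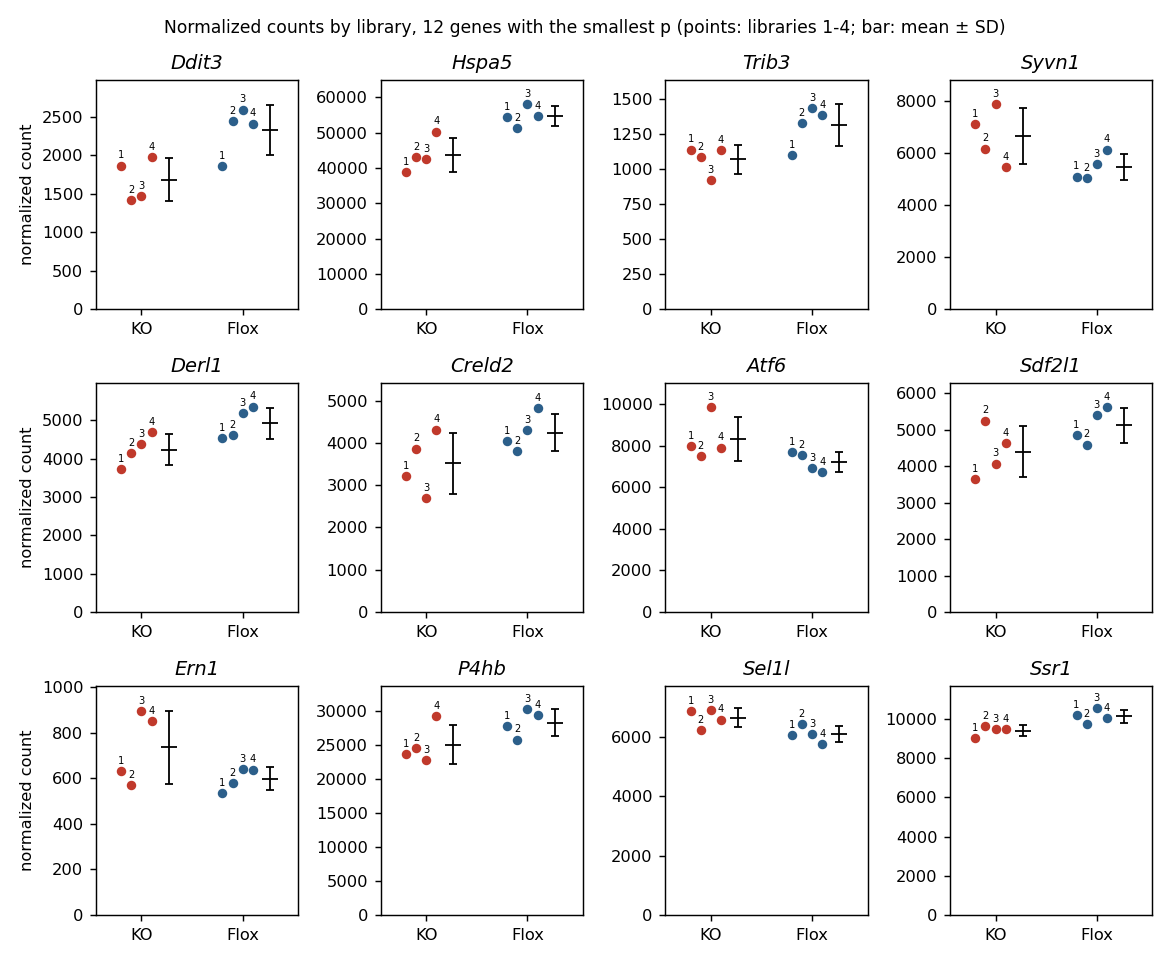
Normalized counts in each library for the 12 genes with the smallest p, KO left of Flox, with vertical axes that start at 0. Points are libraries 1 to 4 and the bar is the mean ± SD. KO and Flox points are fully apart for Hspa5 and Ssr1 and overlap for the other genes.

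The KO libraries were more spread than the Flox libraries. The coefficient of variation of the members had a median of 11.0% in KO, with a range of 2.88% to 25.4%, and of 7.98% in Flox, with a range of 1.73% to 19.9%. It was larger in KO for 26 of 36 members, against 76.3% of all tested genes. KO library 3 held the highest of the 8 values in 12 members and the lowest in 9, KO library 1 the lowest in 13, and Flox library 4 the highest in 11.

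The other genes of these pathways had no call by the main test. Over 7 lists, 115 other genes passed the filter, and limma and edgeR called 0 of them. Of these, 20 (17.4%) had an unadjusted p under 0.05, against 15.1% of all genes, and DESeq2 called 4 (3.48%), against 1.61% of all genes. The 20 targets of PERK and ATF4 had a median log2 fold change of -0.05, with 12 below 0, and 5 (25.0%) with such a p, all lower in KO, against 7.39% of all genes lower. DESeq2 called 2 of these 20 genes. The lists were chosen with earlier results of these data known, so their contrasts with all genes describe them and test nothing. Atf3, a stress-induced transcription factor, had normalized counts of 334, 263, 290.2 and 341 in KO libraries 1 to 4, against 385, 571, 477 and 470.1 in Flox libraries 1 to 4, with no overlap between groups, a log2 fold change of -0.62, an adjusted p of 0.238 by limma and an adjusted p of 0.0135 by DESeq2. Ddit4, an inhibitor of mTORC1, was at -0.46, with an adjusted p of 0.0467 by DESeq2, and Nupr1 at -0.67 (-0.36 without KO 1 and 3).

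Among 21 genes of the XBP1 and ATF6 arms beyond the members, 12 were above 0 and 9 below, with a median of 0.03. Wfs1, an ER membrane protein that restrains ATF6, had normalized counts of 509.5, 382, 531 and 471 in KO libraries 1 to 4, against 275, 318, 321 and 363 in Flox libraries 1 to 4, without overlap. Its log2 fold change was 0.56, with an adjusted p of 0.238 by limma and 0.0169 by DESeq2. Ppib, an ER peptidyl-prolyl isomerase, was at -0.33 (-0.13 without KO 1 and 3), and Mbtps1, a protease that cuts ATF6, was at 0.19. The unadjusted p was under 0.05 for 2 of the 21 that were higher (9.52%) and 3 that were lower in KO (14.3%), against 7.74% and 7.39% of all genes.

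Of 17 genes of signal recognition, translocation and signal cleavage, 11 were below 0, with a median of -0.04. An unadjusted p under 0.05 was found for 1 higher (5.88%) and 3 lower (17.6%), against 7.74% and 7.39% of all genes. Srp9, of the signal recognition particle, was at -0.36 (-0.19 without KO 1 and 3), the translocation protein Tram2 at 0.34 and the signal peptidase subunit Sec11c at -0.33 (-0.16 without KO 1 and 3). The 17 genes of oligosaccharyltransferase and glycan processing had a median of -0.06 and 10 below 0. The cargo receptor subunit Mcfd2, at -0.26, was the 1 gene among them with such a p (5.88% lower, against 7.39% of all genes). The glucosidase subunit Prkcsh was at -0.22 (-0.08 without KO 1 and 3) and the mannosidase Man1b1 at -0.17 (-0.06 without KO 1 and 3). None of 18 further degradation genes had such a p, against 15.1% of all genes, and their median was -0.01. Among them the VCP recruiter Faf2 was at 0.15 (0.07 without KO 1 and 3) and the ubiquitin-conjugating enzyme Ube2j2 at -0.22 (-0.02 without KO 1 and 3).

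The cytosolic heat shock list covers folding outside the ER, with 13 genes tested, 9 below 0 and a median of -0.03. Hspa8, the constitutive HSP70, had normalized counts of 22403, 18391, 23392 and 14071 in KO libraries 1 to 4, against 16233, 13400.5, 11660.0 and 11616 in Flox libraries 1 to 4, a log2 fold change of 0.55 (0.30 without KO 1 and 3) and an adjusted p of 0.240 by limma and 0.0491 by DESeq2. KO libraries 1 to 3 were above all Flox libraries, and KO 4 lay between Flox 1 and Flox 2. The inducible Hspa1a had normalized counts of 5.3, 11.7, 6.9 and 6.1 in KO libraries 1 to 4, against 30.1, 19.2, 17.4 and 20.7 in Flox libraries 1 to 4, and Hspa1b had normalized counts of 14.8, 13.0, 4.6 and 7.6 in KO libraries 1 to 4, against 42.1, 21.8, 22.0 and 23.8 in Flox libraries 1 to 4. Both were lower in every KO library than in every Flox library, as were 3.79% of all genes. Their estimates were -1.45 and -1.43, each with an adjusted p of 0.239 by limma, and with 0.0640 and 0.0796 by DESeq2. Their means over the 8 libraries, 14.7 and 18.7, lay near the filter limit of 10. Hspa1a and Hspa1b are near-identical copies that share reads, so the split between them is uncertain. The unadjusted p was under 0.05 for 1 higher (7.69%) and 2 lower (15.4%) genes of this list, against 7.74% and 7.39% of all genes. Of 10 plasma cell genes 5 were above 0 and 5 below. Such a p was found for 1 higher (Ell2, 10.0% of the list) and 1 lower (Mzb1, 10.0%), against 7.74% and 7.39% of all genes. Prdm1, the master factor of plasma cells, was not among these, with an unadjusted p of 0.0853 and an adjusted p of 0.379 by limma. It was at 0.57 (0.35 without KO 1 and 3), with 1034, 704, 2012 and 1615 in KO libraries 1 to 4, against 710.0, 599, 1069 and 1071 in Flox libraries 1 to 4. The elongation factor Ell2 was at 0.36 (0.18 without KO 1 and 3). Mzb1, an ER chaperone of antibody assembly, was at -0.50 (-0.25 without KO 1 and 3).

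Ago2 CLIP regions were found in every member. The authors' dCLIP output compares the pooled CLIP conditions in bins of 5 nt and gives each run of bins a hidden state, 0, 1 or 2, and a score, the authors' own value per region, which is 0 in state 1. The header does not name the conditions, so a state or a difference cannot be given a direction between KO and Flox, and pooling leaves no error between samples. On the members' own strand lay 3615 regions, 8 (Sec61b) to 996 (Atf6) a gene, with a median of 71, against 23 over 10219 protein-coding genes with any. Regions were present in 36 of 36 members and in 88.2% of tested protein-coding genes. The members also had more RNA-seq reads, with a median mean normalized count of 7516 against 1027, and were shorter, with a median span of 12963 nt against 23356 nt, and the part of read number in these counts was not tested.

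The shares of the states were close to those in coding genes at large. States 0, 1 and 2 held 32.0%, 57.8% and 10.2% of the members' regions and 31.2%, 59.0% and 9.80% of those in tested coding genes, beside 33.1% in state 0 and 9.29% in state 2 over all regions. All 36 members had at least 1 region of state 0 or 2, as had 84.0% of tested coding genes. State 2 was not found in Creld2, Sdf2l1, Dnajb11 and Sec61b. Within 1000 nt of the annotated 3′ end, where most microRNA target sites lie, were 379 regions, 10.5% against 7.75% in coding genes. At least 1 such region was present in 32 of 36 members, against 76.2% of coding genes with regions, and in none of Manf, Dnajb11, Sec61g and Ssr1.

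The highest score of a member lay within that distance of the 3′ end in 24 of 36 genes, against 39.5% of coding genes. The median highest score was 31.4 for the members and 9.40 for coding genes. The members had more reads, more regions a gene and shorter spans than coding genes at large. The part of these differences in the scores and in the shares near the 3′ end was not tested. Herpud1 had the highest score of the set, 299.2, at chr8:94395115-94395199 (GRCm38), a state 0 region of 85 nt that ended 178 nt before the gene's 3′ end. Only 26 of the 10219 coding genes had a higher one. Beside it lay state 2 regions at chr8:94394990-94395024 with a score of 90.1 and at chr8:94395285-94395369 with 77.5, so states 0 and 2 alternated over this stretch of Herpud1.

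Dnajb9 followed, with a score of 175.9 in a state 2 region at chr12:44206095-44206129, 536 nt before the 3′ end, and 70 coding genes had a higher one. A state 0 region with a score of 81.2 lay at chr12:44205990-44206009. The highest scores of Ssr3, Pdia6, Canx, Edem1 and Hspa5 were 97.2, 81.2, 63.7, 62.5 and 59.5, the last at chr2:34776410-34776439 in state 2 and 1108 nt from the 3′ end. Of the other members described by library, Ddit3 had a highest score of 19.6, Trib3 of 8.40 and Ern1 of 41.0, and Derl3 had the lowest of all members, 5.

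Coverage by regions also differed among members. Regions covered 85.1% of the span of Atf4, 82.3% of Hspa5 and 75.3% of Calr, all shorter than the members' median, and 3.72% of Ern1 and 3.92% of Edem2. In Atf6 they covered 46.0% of a span of 163098 nt in 402 separate stretches. For 6 members some regions also overlap another gene on the same strand, among them 49 of 72 regions of Manf and 16 of 135 of Hsp90b1, and for these the source RNA cannot be told apart.

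**Figure D5:**
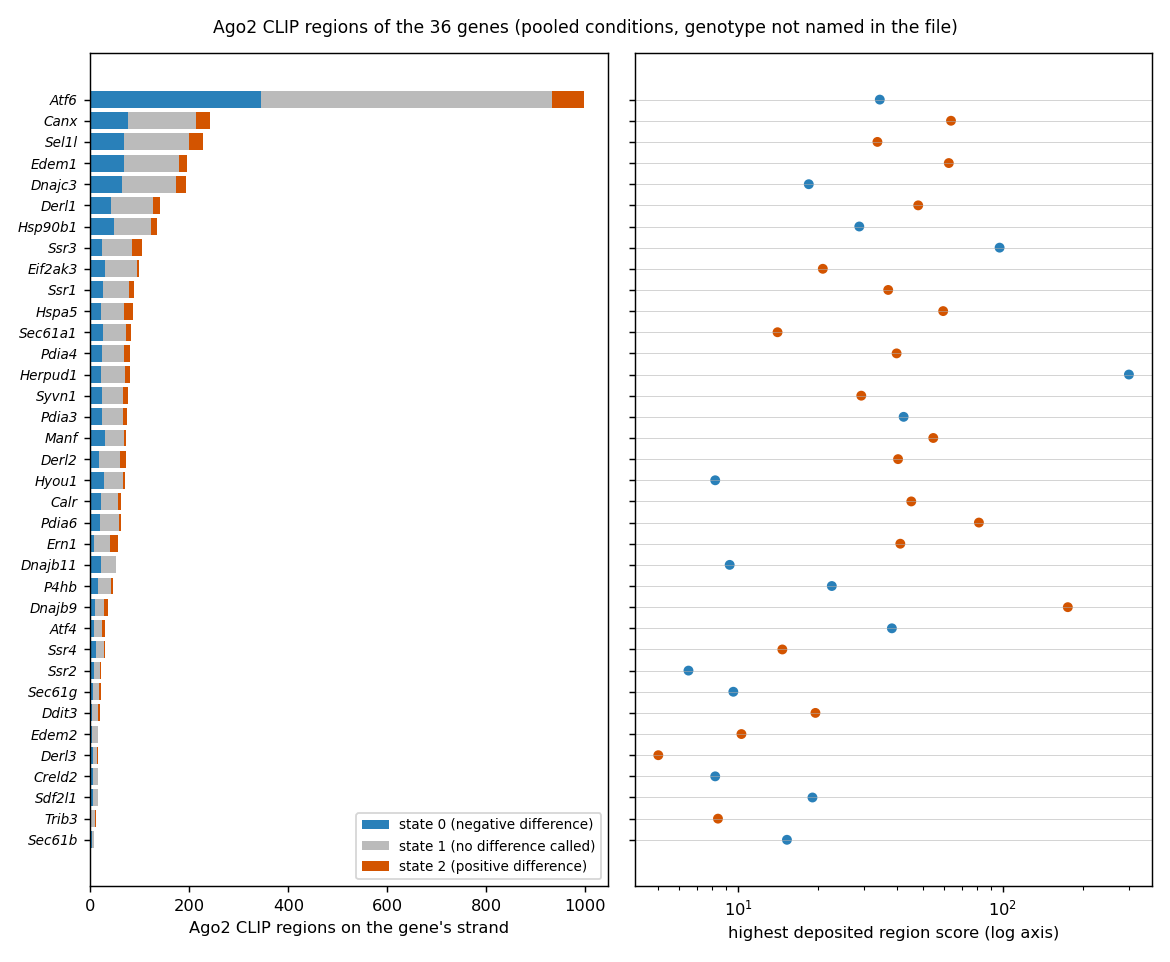
Ago2 CLIP regions on the strand of each of the 36 genes, 1 gene a row. The left panel stacks the number of regions by hidden state, and the right panel gives the highest deposited score on a log axis, coloured by the state of that region. Atf6 has the most regions, 996, while Herpud1 (299.2) and Dnajb9 (175.9) have the highest scores.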

How the data were processed

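Deposited RNA-seq values are size-factor normalized counts per gene (unit: signal, by the authors), from which whole reads were recovered for 100% of values within 0.1 read. The authors' deposited table also gives their log2 fold change, fold ratio, p-value and adjusted p-value for KO over WT (Flox) and GC content in percent. The deposited CLIP files give a difference score per 5-nt bin, a hidden state and a score per region. Of the CLIP table's columns 4 were not used, since its header names no genotype, and of 962700 regions 616 that began before position 3000000 (chrM and chrY apart) or lay on other contigs were left out. The submitters' processing notes name cutadapt, Bowtie2, SAMtools, STAR, DESeq2, DESeq and build mm9, with no versions. Gene positions in the table are those of GRCm38: 99.8% of 20505 coding symbols, and all 36 members, overlap their RefSeq GRCm38.p6 gene. The CLIP files name no build; their regions were placed on the same positions, where they cover 82.3% of Hspa5 and 85.1% of Atf4 on the gene's strand.

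Rows with a mean normalized count of at least 10 were fitted with limma 3.58.1 (trend) in R 4.3.3 on log2(normalized count + 1), two-sided. A fold change on this scale understates that of low genes, though the lowest member mean was 86.5. edgeR 4.0.16 (quasi-likelihood) and DESeq2 1.42.0 on recovered reads, another pseudocount, other filters, TMM scaling, a span and GC correction, a replicate block and leaving out libraries were alternatives. On counts simulated for this comparison with 1 fixed dispersion, limma called 97% of 100 genes changed by 1 and 100% of 100 changed by 2 (log2), with 12 false calls among 13091 genes. Neither changes of the members' size, -0.47 to 0.28, nor the wider spread of the KO libraries were simulated. Values in every library are given for the 12 members with the smallest p and the one with the highest mean of each role, and of each other list up to 3 genes with the smallest p are named, some by their fold change alone. Of these genes 1 is not reported here. Members and lists were chosen with earlier results of these data known. Protein sequences and seed matches were not analysed here. Arms of the CLIP data were pooled by the authors, so no interval can be given for them.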

Additional observations from a re-analysis of the deposited data

Results flagged for a closer look

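Among 130 groups of 4 libraries (members and named genes), 2 had a library whose gap to the next, divided by the group's range, passed Dixon's 95% limit, where chance gives about 1 in 20. Hspa1b, an inducible cytosolic HSP70, had 42.1 normalized counts in Flox library 1, against 21.8 to 23.8 in the other Flox libraries, a gap of 0.901 of the range. Ell2, an elongation factor of plasma cells, had 3159 in Flox library 1, against 2784 to 2830 in the others, a gap of 0.878 of the range. None of the 36 members had such a library in either group.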

How the results depend on the processing

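No member passed adjusted p under 0.05 in any of 17 settings (612 member comparisons). Members with an unadjusted p under 0.05, 5 with all libraries, numbered 2 to 8 when 1 library was left out (7.71% to 21.1% of all genes) and 1 without KO libraries 1 and 3 (6.22%). Members whose groups did not overlap, 2 with all libraries, numbered 2 to 6 with 1 library left out, as 4 without KO library 2 (17.6% of all genes), 6 without KO library 4 (17.2%) and 5 without Flox library 1 (15.8%). Over all genes the 9 calls became 205 with DESeq2, and 8 to 17 with 1 library left out, with 17 without KO library 2 and 14 without KO library 4. Of the members 26 kept their sign throughout and 10 did not, Dnajb9 with an estimate of 0.17 and the other 9 between -0.10 and 0.01. The sign turned without KO libraries 1 and 3 for Dnajb9 (-0.053), Hyou1 (0.022) and Ssr2 (0.080). It turned with the gene span and GC correction for Derl3 (0.12), Edem1 (-0.037), Hyou1 (0.020), Pdia3 (-0.012), Ssr2 (0.018) and Ssr4 (0.00046), and with TMM scaling for Edem1 (-0.011) and Pdia3 (-0.0061). With 1 library left out, estimates ranged from -0.068 to 0.041 for Canx, -0.14 to 0.070 for Derl3, -0.074 to 0.023 for Dnajc3, -0.051 to 0.047 for Edem1, -0.18 to 0.018 for Hsp90b1, -0.090 to 0.0065 for Hyou1, -0.031 to 0.066 for Pdia3, -0.061 to 0.069 for Ssr2 and -0.22 to 0.0059 for Ssr4. The cause was not tested.

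Libraries with the same replicate number did not deviate together over all tested genes, with correlations of -0.09, -0.06, -0.05 and 0.00 over the 4 pairs. Pairs of unlike number ranged from -0.16 (KO 3 with Flox 4) to 0.22 (KO 4 with Flox 3). This check therefore cannot tell whether the numbers pair the samples. A replicate block called 0 members and 11 genes in all. It put 6 members at an unadjusted p under 0.05, against 14.2% of all genes. Counts of groups without overlap cannot be had from DESeq2, edgeR or the block. In the CLIP data, 509 of the members' 3615 regions had a score of at least 5. The share near the 3′ end was 6.20% within 500 nt and 23.2% within 3000 nt, against 10.5% within 1000 nt. With 4 libraries a group, the lowest bound of a member's interval was -0.77 (Ddit3) and the highest was 0.61 (Ern1). Of the 36 intervals 31 held 0, and for these genes a difference within the interval cannot be told from 0.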

Other observations

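An exact ERSE also lay in the promoter windows of 28 genes outside the set, of which 9 passed the abundance filter. They include Ero1lb, an oxidase that recharges protein disulfide isomerase, and Alg12, a mannosyltransferase of ER glycan assembly. None had an unadjusted p under 0.05 by limma, and 5 were below and 4 above 0. Ero1lb averaged 1929.7 ± 375 normalized counts in KO and 1873 ± 246 in Flox libraries (SD, n = 4 each), a log2 fold change of 0.03. Alg12 averaged 361 ± 36.8 in KO and 350.4 ± 16.4 in Flox libraries, a log2 fold change of 0.04. Both were picked for their ER roles after their values were seen.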
